A study of Mus musculus with 92 samples.

Results

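The genes described here encode the machinery that charges transfer RNAs, processes RNA and drives translation inside mitochondria, without the ribosomal proteins apart from Ptcd3. A list of 48 named genes was used, out of 56953 gene IDs in the tables, and each of the 48 was found by its symbol and passed the low-count filter in both assays. They fall into 6 roles: 16 aminoacyl-tRNA synthetases, 4 genes of transamidation and formylation, 9 translation factors, 7 genes of tRNA processing and modification, 7 of mRNA stability and maturation and 5 of ribosomal RNA and ribosome assembly.

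The cells were mouse embryonic stem cells (mESCs) of the line B6, cultured with LIF, PD0325901 and CHIR99021, in which a degradation tag (dTAG) was carried by GABPA, by GABPB1, or by GABPB1 together with GABPB2. The DMSO controls carried the same tag as the treated cells of their line, and the labels do not say how many clones stand behind a line. Each line received dTAG-13 (500 nM) or DMSO. Loss of a protein stands below for dTAG-13 treatment of its line, since the data used here hold no protein levels. RNA-seq of polyadenylated RNA was taken at 12 h in the 3 lines (12 libraries in 6 groups). SLAM-seq of the GABPA line was taken after 1, 2, 4 and 12 h (14 libraries in 7 groups), with 1 DMSO group shared by 2 h and 4 h and labelled as 2 h. SLAM-seq adds 4-thiouridine (500 µM) to living cells, and reads of RNA made in its presence carry T-to-C conversions. How long it was present before each time point is not stated in the sources used here. Every group held 2 libraries, and nothing in the labels ties them to separate cultures, so p-values measure the spread between these libraries, which may be technical.

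Mitochondria carry their own small genome, whose messenger RNAs for subunits of the respiratory chain are translated by a dedicated ribosome. The RNAs are transcribed as long precursors in which tRNAs separate the messages, and RNase P and RNase Z cut the tRNAs out. All proteins of this system are encoded in the nucleus. GABP, also called NRF-2, is a transcription factor made of the ETS-family protein GABPA, which binds DNA at a GGAA core, and a GABPB subunit, and it has long been tied to nuclear genes for mitochondrial proteins.

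RNA-seq libraries held 16.0 to 32.1 M expected counts, and SLAM-seq libraries 11.5 to 30.7 M reads, which included 0.937 to 4.25 M converted reads. A median member had 332.5 to 868.5 counts per RNA-seq library, but 24 to 125.5 converted reads per SLAM-seq library. Of the 48 members, 1 to 18 had under 20 converted reads in a SLAM-seq library, and small changes of such members could not be detected at this depth. The 8 stem cell markers were high (summed TPM of 10169 to 11777 per RNA-seq library), while 8 feeder fibroblast markers summed to 2.95 to 8.09 TPM, with Lum at 0 in every library. Dppa5a alone reached 8756 TPM, and no stem cell marker was under 98.0 TPM. Markers of ectoderm, mesoderm and endoderm (12 genes) summed to 8.07 to 30.4 TPM. In the GABPA line Neurod1 measured 1.26 and 1.17 TPM with DMSO and 12.6 and 9.89 TPM with dTAG-13. Eomes measured 16.2 and 16.6 TPM, then 7.12 and 8.83 TPM there, and Nanog 334 and 331 TPM, then 245 and 272 TPM. The other stem cell markers of this line did not all go the same way. Sox2 measured 197 and 203 TPM, then 236 and 217 TPM, and Tfcp2l1 108 and 110 TPM, then 127 and 148 TPM. Dppa5a measured 7807 and 7504 TPM, then 8283 and 8525 TPM, and Pou5f1 2032 and 2074 TPM, then 2029 and 1979 TPM. Zfp42 measured 112 and 108 TPM, then 100 and 105 TPM, while Esrrb and Klf4 had overlapping groups. The lineage marker Sox1 measured 3.43 and 3.09 TPM, then 2.8 and 2.08 TPM. T measured 14.0 to 16.4 TPM in the GABPB1/B2 line. In bulk samples fewer cells of a type and less RNA per cell cannot be told apart. The tag acts on protein, so the RNA of the tagged genes does not check the labels.

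To show what lies at the gene starts, the promoters of the 5 members with the largest called falls in RNA-seq of the GABPA line that have an entry, and of the member with the largest called rise, are printed as 150 bases (130 before to 20 after the start, from RefSeq, build GRCm38.p6, 5′ to 3′ on the strand of the gene). Capitals mark matches to CCGGAAG or its reverse complement CTTCCGG, the core of the known GABP site.
Ngrn, chr7:80261085-80261234, plus strand: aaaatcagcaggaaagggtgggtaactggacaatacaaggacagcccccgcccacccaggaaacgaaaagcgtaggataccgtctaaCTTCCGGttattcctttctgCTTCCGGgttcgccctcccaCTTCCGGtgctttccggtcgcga
Rars2, chr4:34614827-34614976, plus strand: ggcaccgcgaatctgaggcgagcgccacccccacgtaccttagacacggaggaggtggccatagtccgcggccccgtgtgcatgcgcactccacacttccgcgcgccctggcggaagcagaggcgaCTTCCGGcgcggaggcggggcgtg
Fastkd5, chr2:130629983-130630132, minus strand: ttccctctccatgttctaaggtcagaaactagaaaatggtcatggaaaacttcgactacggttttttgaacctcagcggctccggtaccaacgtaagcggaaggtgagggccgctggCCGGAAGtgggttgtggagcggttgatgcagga
Gfm2, chr13:97137807-97137956, plus strand: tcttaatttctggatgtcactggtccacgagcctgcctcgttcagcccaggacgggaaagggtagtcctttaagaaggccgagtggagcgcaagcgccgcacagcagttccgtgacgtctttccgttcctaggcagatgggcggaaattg
Trmt10c, chr16:56037767-56037916, minus strand: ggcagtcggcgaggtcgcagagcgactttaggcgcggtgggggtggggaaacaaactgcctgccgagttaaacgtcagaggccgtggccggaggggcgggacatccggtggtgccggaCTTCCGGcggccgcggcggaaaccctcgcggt
Lars2, chr9:123366797-123366946, plus strand: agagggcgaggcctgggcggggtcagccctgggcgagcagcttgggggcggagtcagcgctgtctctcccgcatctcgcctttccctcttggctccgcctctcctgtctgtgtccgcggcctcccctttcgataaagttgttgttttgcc
Ngrn has 3 matches, which begin 43, 23 and 3 bases before the start. Rars2, Fastkd5 and Trmt10c have 1 match each, which begins 4, 13 and 12 bases before the start, and Gfm2 and Lars2 have none in the window.

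Promoters of 43 of the 48 members were in the table (those of Hars2, Pars2, Gatb, Mtif3 and Ybey were not used here), read over 300 bases (250 before to 50 after the start) on both strands. CCGGAAG or CTTCCGG occurred for 14 members (32.6%) and for 9.93% of the 27025 genes with an entry. The longer CCGGAAGT or ACTTCCGG, which contains the shorter one, occurred for 7 members (16.3%) and for 4.31% of the genes. The 27025 genes include genes not tested here, while all members were tested. Among the other tested genes with an entry, 2133 had the 7-base match and 9154 did not. In RNA-seq of the GABPA line, all 14 members with the 7-base match fell, with a median log2 fold change of -0.90. The calls on 2 of them, Sars2 and Tbrg4, ended with the replicate number as a block in the fit and with DESeq2. Among the 29 members without it, 6 fell and 4 rose, with a median of -0.05. Among the other genes tested, 50.3% of 2133 with the match fell and 17.9% of 9154 without it. In SLAM-seq at 1 h the 3 members that fell were all among the 14 with the match, while 6.34% of other genes with the match and 0.767% of those without it fell. A match is a description of letters and was not tested as a binding site.

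At the level of the transcript, Tufm, the mitochondrial elongation factor Tu, was the most abundant member with a mean of 204 TPM (a level scaled to transcript length and library) in the 2 DMSO libraries of the GABPA line. Hsd17b10, a subunit of RNase P, followed with 140 TPM, Tbrg4 (FASTKD4) with 120 TPM and Ptcd3, a pentatricopeptide protein of the small ribosomal subunit, with 109 TPM. At the low end stood Mars2 with 2.95 TPM, Wars2 with 2.47 TPM and Mtrf1l with 1.88 TPM. Tars2 was the highest synthetase (46.1 TPM) and Mtfmt, which formylates the initiator tRNA, the highest gene of its role (13 TPM).

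In RNA-seq of the GABPA line, 22 of 48 members fell and 4 rose at 12 h (edgeR's quasi-likelihood test, adjusted p under 0.05). The other 22 did not pass the test. Of all 16396 genes tested, 21.9% fell and 24.6% rose, 46.5% in all. The median log2 fold change of the members was -0.18, and that of all genes was 0.06. Falls of more than 2-fold were called for 9 members and no rise reached that size. Falls of that size were not counted over all genes, here or in the other comparisons. By role, 7 of 16 synthetases, 4 of 9 translation factors, 4 of 7 tRNA processing genes, 4 of 7 mRNA genes and 3 of 5 ribosomal RNA genes fell. None of the 4 genes of transamidation and formylation changed, at an adjusted or at an unadjusted p under 0.05 (0 of 4 in both directions).

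**Figure D1:**
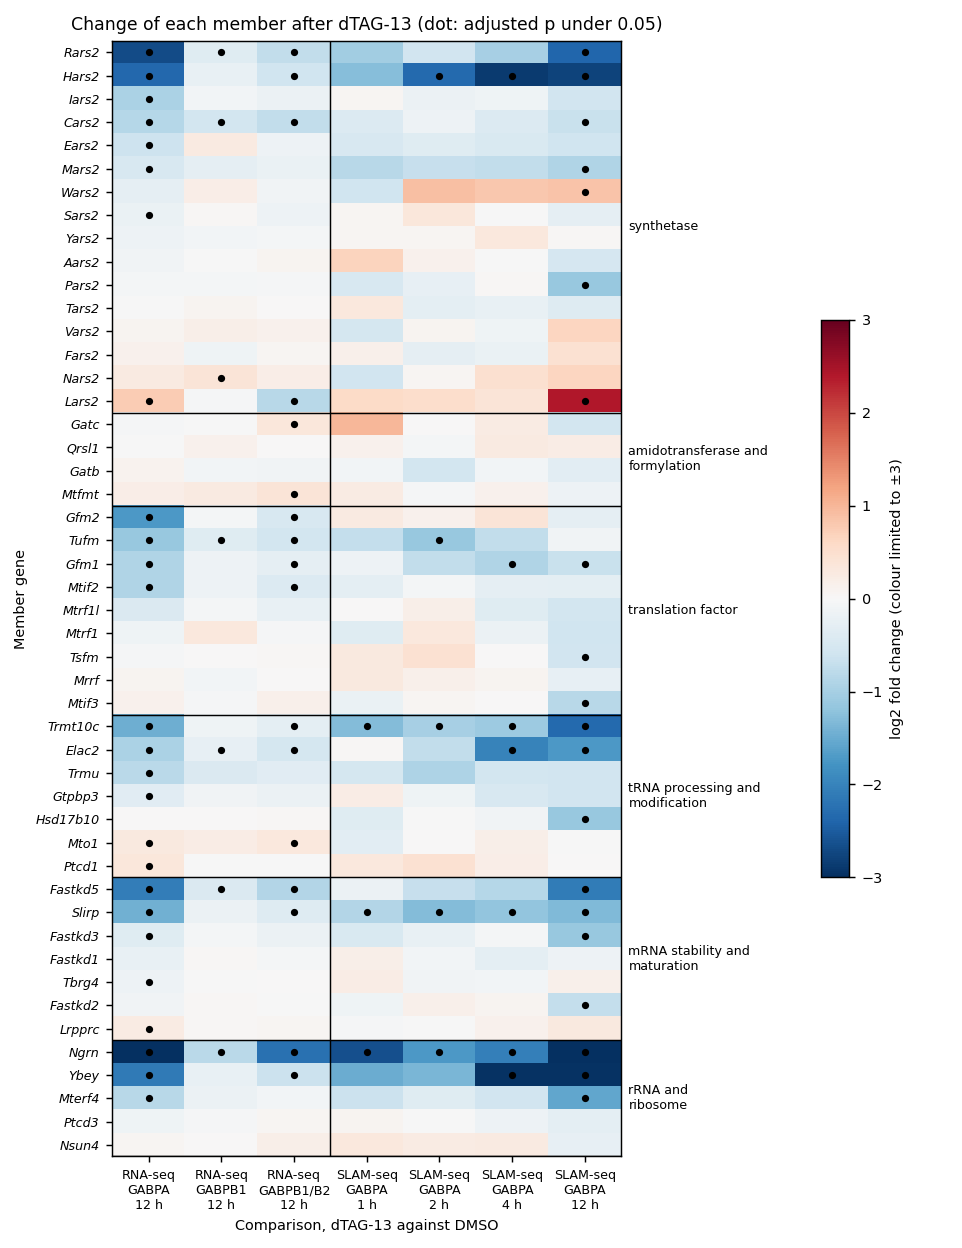
Heat map of the log2 fold change (dTAG-13 against DMSO) of the 48 members, in rows by role, in the 7 comparisons with DMSO in columns, with dots at an adjusted p under 0.05 and colours limited to ±3. The GABPA column of RNA-seq holds 22 falls and 4 rises, and that of SLAM-seq at 12 h holds 18 falls and 2 rises.

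Among the genes for ribosomal RNA and the ribosome, Ngrn (neugrin, needed for the large mitochondrial ribosomal RNA) had the largest fall of all members. It measured 34.4 and 34.5 CPM (counts scaled to library size) in the DMSO libraries and 1.98 and 2.65 in the dTAG-13 libraries. The fall was 14.8-fold (log2 fold change -3.89 ± 0.15 SE, adjusted p = 2.8e-12), with no overlap of the groups. Ybey, an endoribonuclease of ribosomal RNA maturation, measured 11.8 and 12.1 CPM with DMSO and 2.42 and 3.07 CPM with dTAG-13 (-2.12 ± 0.16). Mterf4, which brings the methyltransferase NSUN4 to the large subunit, went from 14.8 and 13.4 CPM to 8.36 and 7.37 CPM (-0.84 ± 0.13). Both fell by the test. Nsun4 (0.05 ± 0.12) and Ptcd3 (208 and 190 CPM with DMSO, 168 and 195 CPM with dTAG-13) did not pass the test, and their groups overlapped.

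Rars2 and Hars2, which charge the arginine and histidine tRNAs, led the synthetases. Rars2 measured 41.1 and 40.7 CPM with DMSO and 6.69 and 6.13 CPM with dTAG-13, a 6.38-fold fall (-2.67 ± 0.10, adjusted p = 1.6e-12). Hars2 measured 30.3 and 30.9 CPM with DMSO and 6.13 and 5.78 CPM with dTAG-13, a 5.13-fold fall (-2.36 ± 0.13, adjusted p = 1.4e-10). In both the treated libraries lay far below the controls. The other synthetase falls were under 2-fold: Iars2 (-0.95 ± 0.08), Cars2 (-0.86 ± 0.10), Ears2 (-0.62 ± 0.10), Mars2 (-0.47 ± 0.10) and Sars2 (-0.20 ± 0.08). The call on Sars2 was lost without DMSO replicate 2 or dTAG-13 replicate 1 (adjusted p = 0.22 to 0.26), and also without a low-count filter, with a stricter one (mean log2 CPM from 3 up), with the replicate number as a block and with DESeq2 (0.053 to 0.12). Tars2 kept 73.0 and 78.4 CPM with dTAG-13 beside 73.5 and 79.1 CPM with DMSO, and Pars2 14.9 and 14.1 CPM beside 14.2 and 15.7 CPM. The 8 synthetases that did not pass the test ranged from -0.26 (Wars2) to 0.28 (Nars2). Of the 16 only Lars2 rose, and its reads are described separately.

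The fallen translation factors were 2 elongation factors, 1 recycling factor and 1 initiation factor. Gfm2, the G protein that recycles ribosomes after termination, measured 71.6 and 77.7 CPM with DMSO and 23.1 and 22.2 CPM with dTAG-13 (-1.72 ± 0.08, 3.30-fold). Tufm went from 225 and 232 CPM to 112 and 94.0 CPM (-1.15 ± 0.07), and Gfm1, the elongation factor G1, from 104 and 101 CPM to 55.2 and 53.4 CPM (-0.91 ± 0.08). Mtif2, the initiation factor that recruits the initiator tRNA, changed by -0.89 ± 0.10. Tsfm, the exchange factor of Tufm (-0.05 ± 0.08), Mtif3 (0.14 ± 0.10), Mrrf (0.09 ± 0.10), Mtrf1 (-0.14 ± 0.14) and Mtrf1l (-0.43 ± 0.23) did not pass the test.

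RNase P of mitochondria has 3 protein subunits, 2 of them members, and these differed. Trmt10c, the methyltransferase subunit, measured 35.4 and 35.7 CPM with DMSO and 12.1 and 13.6 CPM with dTAG-13 (-1.47 ± 0.09, adjusted p = 6.4e-10). Hsd17b10 measured 79.4 and 76.4 CPM with DMSO and 76.6 and 80.6 CPM with dTAG-13 (0.01 ± 0.07), with overlapping groups. Elac2, the RNase Z that cuts the other end of the tRNA, went from 116 and 117 CPM to 61.3 and 59.6 CPM (-0.95 ± 0.06). Trmu, which thiolates the wobble uridine, fell by 0.81 ± 0.18 on the log2 scale and Gtpbp3 by 0.33 ± 0.11, while Mto1, the partner of GTPBP3 in the same wobble modification, rose by 0.30 ± 0.09. Ptcd1 rose by 0.34 ± 0.08. The call on Gtpbp3 was lost without DMSO replicate 2 or dTAG-13 replicate 2 (adjusted p = 0.072 and 0.15).

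Of the mRNA genes, Fastkd5, which processes message ends that no tRNA flanks, measured 19.5 and 20.4 CPM with DMSO and 4.03 and 5.42 CPM with dTAG-13 (-2.07 ± 0.16, 4.21-fold). SLIRP and LRPPRC form 1 complex that stabilizes mitochondrial messages, and their genes moved in opposite directions. Slirp measured 50.6 and 50.4 CPM with DMSO and 19.8 and 17.1 CPM with dTAG-13 (-1.45 ± 0.12), and Lrpprc rose by 0.24 ± 0.07. Fastkd3 went from 31.6 and 36.9 CPM to 28.6 and 24.6 CPM (-0.37 ± 0.11) and Tbrg4 from 188 and 196 CPM to 178 and 169 CPM (-0.15 ± 0.06). The calls on the small changes of Lrpprc, Fastkd3 and Tbrg4 did not always hold with 1 library left out, which leaves 1 library in its group. All 3 were lost when DMSO replicate 2 was left out, and also when dTAG-13 replicate 2 was. The call on Tbrg4 ended as well without a low-count filter, with the stricter filter, with the replicate block and with DESeq2 (adjusted p = 0.052 to 0.15).

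**Figure D2:**
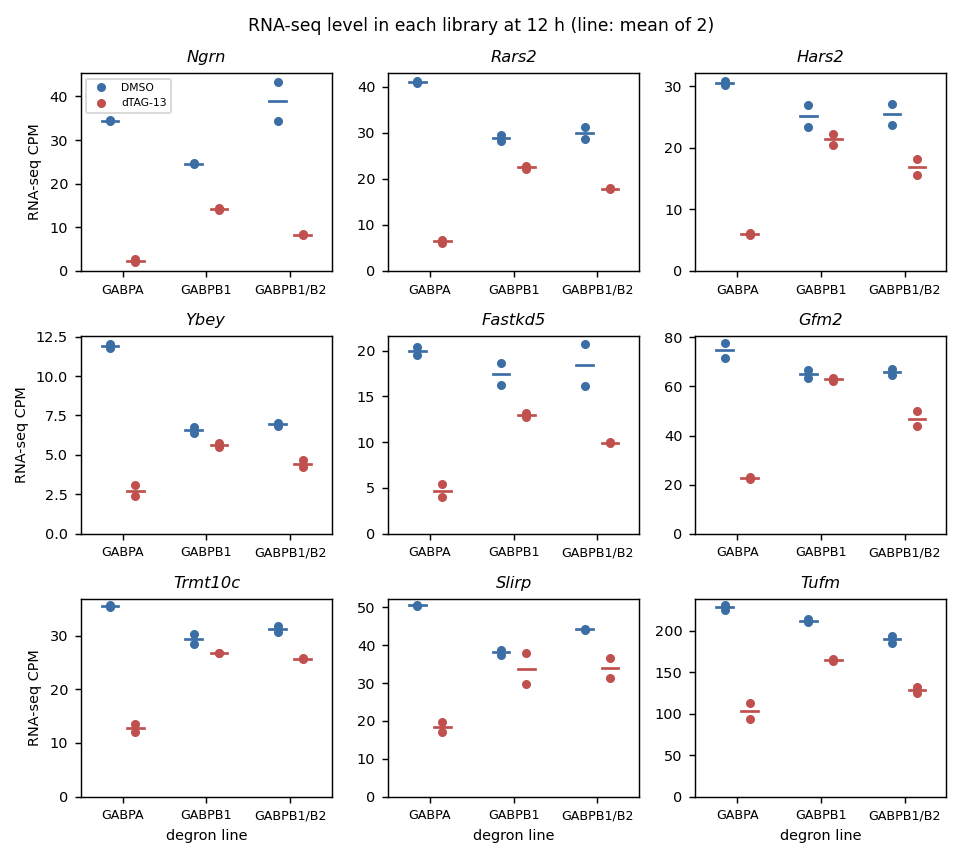
RNA-seq level (CPM, axes from 0) of the 9 members that fell by more than 2-fold in the GABPA line, for every library of the 3 lines at 12 h, with points for libraries and short lines for the mean of 2. The treated libraries of the GABPA line lie below all its controls in the 9 panels, and in the GABPB1 line Slirp has overlapping groups.

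Loss of GABPB1 alone at 12 h lowered 6 members and raised 1, where 5.46% of all genes fell and 1.28% rose (6.75% in all). The falls were Ngrn (-0.80 ± 0.10), Cars2 (-0.54 ± 0.11), Fastkd5 (-0.43 ± 0.12), Tufm (-0.37 ± 0.07), Rars2 (-0.36 ± 0.08) and Elac2 (-0.24 ± 0.06), and the rise was Nars2 (0.39 ± 0.11). Only Ngrn, from 24.5 and 24.7 CPM to 13.9 and 14.3 CPM, kept its call without any 1 of the 4 libraries. The call on Cars2 was lost without DMSO replicate 2 or dTAG-13 replicate 1 (adjusted p = 0.11 and 0.13), that on Tufm without DMSO replicate 2 or either dTAG-13 replicate (0.056 to 0.080), and those on Rars2, Elac2, Fastkd5 and Nars2 without any 1 of the 4 (0.069 to 0.45). With a library left out, 1 to 3 members were called as falls and 0 as rises.

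Loss of GABPB1 and GABPB2 together lowered 14 members and raised 3, where 9.26% of all genes fell and 3.53% rose (12.8% in all). Of these 14, 13 (92.9%) were also among the 22 falls of the GABPA line (59.1% of the 22), and all 6 falls of the GABPB1 line were among both. These overlaps were not counted over all genes, so the shares are not read as particular to the members. Ngrn again had the largest fall, from 43.3 and 34.4 CPM to 8.40 and 8.14 CPM (-2.24 ± 0.12, 4.71-fold). Fastkd5 (-0.88 ± 0.14), Rars2 (-0.74 ± 0.08), Cars2 (-0.73 ± 0.12), Hars2 (-0.59 ± 0.11), Tufm (-0.56 ± 0.07), Elac2 (-0.53 ± 0.06) and Gfm2 (-0.48 ± 0.08) fell too. These 8 calls held without any 1 library. Ybey (-0.64 ± 0.15), Mtif2 (-0.42 ± 0.09), Slirp (-0.38 ± 0.11), Trmt10c (-0.29 ± 0.08) and Gfm1 (-0.28 ± 0.08) also fell, but all 5 lost the call without dTAG-13 replicate 1 (adjusted p = 0.092 to 0.34), Gfm1 and Trmt10c also without DMSO replicate 2 (0.19 and 0.056), Slirp also without DMSO replicate 1 (0.053), and Trmt10c also without dTAG-13 replicate 2 (0.115).

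The rises after loss of both GABPB proteins were Mtfmt (0.38 ± 0.09), Gatc, a subunit of the glutamyl-tRNA amidotransferase (0.35 ± 0.10), and Mto1 (0.31 ± 0.09). Mtfmt measured 14.1 and 13.9 CPM with DMSO and 18.7 and 17.7 CPM with dTAG-13. Its call ended when dTAG-13 replicate 1 was left out (adjusted p = 0.13), Gatc without DMSO replicate 1 or either dTAG-13 replicate (0.15 to 0.16) and Mto1 without any 1 of the 4 libraries (0.056 to 0.22). With a library left out, 8 to 13 members were called as falls and 0 to 3 as rises, newly called members included, the fewest without dTAG-13 replicate 1.

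The difference between lines was tested directly. How far each protein was degraded is not known from these data, and the part of unequal degradation was not tested. The response of the GABPA line was lower than that of the GABPB1/B2 line for 15 members and higher for 2, where 10.7% of all genes were lower and 10.1% higher (20.7% in all). Rars2 (-1.93 ± 0.13), Hars2 (-1.77 ± 0.17), Ngrn (-1.65 ± 0.21), Ybey (-1.47 ± 0.22), Gfm2 (-1.24 ± 0.12), Fastkd5 (-1.19 ± 0.21), Trmt10c (-1.18 ± 0.12) and Slirp (-1.07 ± 0.16) differed by more than 1 on the log2 scale. Against the GABPB1 line, 15 members were lower and 1, Ptcd1, was higher (a call lost without any 1 of 7 of the 8 libraries), where 13.3% of all genes were lower and 12.5% higher (25.7% in all). Both differences share the GABPA libraries. Cars2 fell in all 3 lines, and neither difference from the GABPA line passed the test for it. Between the GABPB1/B2 and GABPB1 lines 1 member differed, Ngrn (-1.43 ± 0.16, adjusted p = 9.8e-05), where 0.927% of all genes were lower and 0.0854% higher (1.01% in all). DESeq2 called 2 members there, and 10 were lower and 1 higher at an unadjusted p under 0.05. Counts at an unadjusted p were not made over all genes, here or in the other comparisons. The shares of all genes are at an adjusted p and cannot be set beside them.

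**Figure D3:**
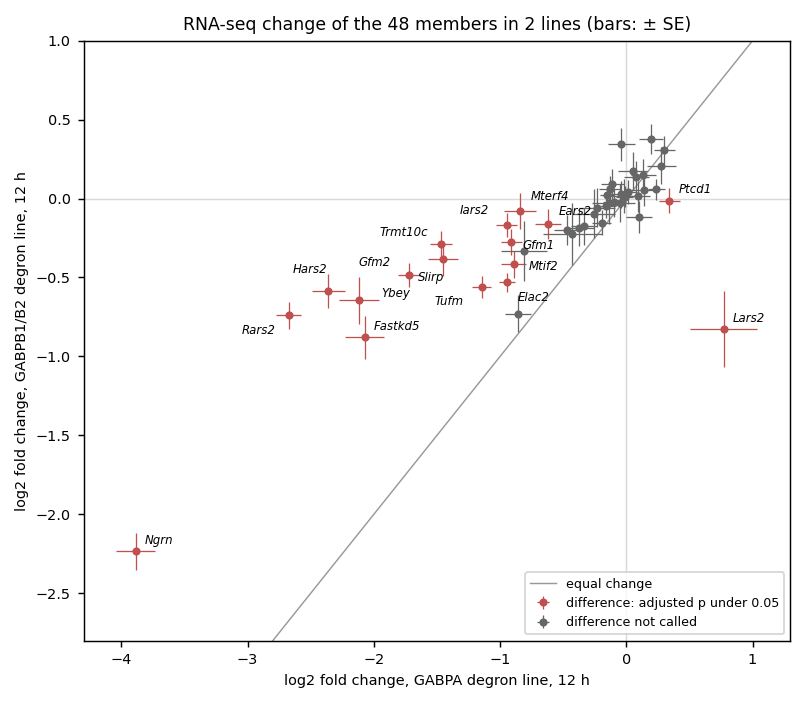
Log2 fold change of each of the 48 members in RNA-seq at 12 h, in the GABPA line (x axis) and in the GABPB1/B2 line (y axis), with bars of ± SE, red points for the 17 members whose responses differed between the lines and a grey line of equal change. Most red points lie above the line on the left side, at a larger fall in the GABPA line, and Ngrn is the lowest in both.

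Newly made RNA changed for few members at first. At 1 h in SLAM-seq, 3 members fell and 0 rose, where 1.72% of all 15887 genes tested fell and 0.0567% rose (1.78% in all). At an unadjusted p under 0.05, a threshold not counted over all genes, 8 fell and 2 rose, and DESeq2 called 3 falls and 0 rises. Ngrn measured 81.9 and 66.9 converted-read CPM with DMSO and 8.19 and 15.8 with dTAG-13 (-2.65 ± 0.31, 6.27-fold, adjusted p = 2.5e-05). Trmt10c went from 377 and 382 CPM to 131 and 180 CPM (-1.29 ± 0.17), and Slirp from 129 and 119 CPM to 71.9 and 63.0 CPM (-0.88 ± 0.20), with adjusted p of 0.00011 and 0.018. The call on Slirp was lost without any 1 of the 4 libraries (0.073 to 0.20).

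Low counts limit what 1 h can show. Hars2 (35.6 and 33.9 CPM with DMSO, 13.7 and 14.7 CPM with dTAG-13) and Rars2 (38.8 and 51.7 CPM, then 15.5 and 29.4 CPM) lay lower in both treated libraries without passing the test (adjusted p = 0.14 and 0.16). Trmt10c and Mars2 had the highest converted shares of their reads in the 1 h DMSO libraries (29.4% and 24.8%), against a median of 5.10% over the members, so these genes carry more converted reads for their level.

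At 2 h 5 members fell and 0 rose, where 3.21% of all genes fell and 0.145% rose (3.35% in all), and at 4 h 7 fell and 0 rose, where 3.91% fell and 0.113% rose (4.02% in all). At an unadjusted p under 0.05, 11 members fell and 3 rose at 2 h, and 11 fell and 1 rose at 4 h. These counts were not made over all genes. DESeq2 called 4 falls and 0 rises at 2 h, and 5 falls and 0 rises at 4 h. With the replicate block 6 members fell and 2 rose at 2 h, and without DMSO replicate 1 of the shared group 4 fell and 2 rose. The 2 h and 4 h groups share their DMSO libraries, so their values are given side by side. Ngrn measured 82.6 and 104 CPM in these DMSO libraries, 26.4 and 30.0 CPM at 2 h (-1.73 ± 0.23) and 19.7 and 24.9 CPM at 4 h (-2.05 ± 0.25). Slirp measured 258 and 286 CPM, then 120 and 102 CPM (-1.29 ± 0.17) and 118 and 120 CPM (-1.19 ± 0.17). Trmt10c measured 173 and 165 CPM, then 71.8 and 99.2 CPM (-0.99 ± 0.18) and 75.0 and 83.4 CPM (-1.09 ± 0.18). These 3 members, already lower at 1 h, stayed below the controls, although the 2 h call on Trmt10c ended when dTAG-13 replicate 1 was left out (adjusted p = 0.062).

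Hars2 fell from 36.3 and 57.1 CPM in the shared DMSO libraries to 6.13 and 12.8 CPM at 2 h (-2.32 ± 0.37) and 8.88 and 4.39 CPM at 4 h (-2.87 ± 0.42). Tufm fell at 2 h, from 30.8 and 28.6 CPM to 13.5 and 13.6 CPM (-1.13 ± 0.30), and at 4 h it measured 19.7 and 16.1 CPM (-0.74 ± 0.30, adjusted p = 0.24). Elac2 measured 21.5 and 22.9 CPM with DMSO, 11 and 15.7 CPM at 2 h, and 7.90 and 3.66 CPM at 4 h, where it fell (-2.0 ± 0.43). Leaving out single libraries ended 2 of these calls: Tufm at 2 h without any 1 of the 4 and Elac2 at 4 h without dTAG-13 replicate 2. The 2 h call on Tufm also ended with DESeq2 and in a fit of the compared libraries alone (adjusted p = 0.077 to 0.15). Rars2 measured 50.1 and 49.97 CPM with DMSO and did not pass the test at 2 h (34.3 and 32.8 CPM, -0.57 ± 0.28, adjusted p = 0.39) or at 4 h (16.8 and 32.2 CPM, -0.99 ± 0.30, adjusted p = 0.066).

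Gfm1 (71.6 and 61.7 CPM with DMSO, 30.6 and 39.5 CPM at 4 h, -0.91 ± 0.24) and Ybey also fell at 4 h. Ybey rested on 39 converted reads in the DMSO group and 3 in the 4 h group, a ratio of 8.19 with a 95% interval of 2.60 to 41.4 that covers counting error only. Both lost their call with DESeq2 (adjusted p = 0.072 and 0.092) and without DMSO replicate 1 or either dTAG-13 replicate (0.067 to 0.30 for Gfm1, 0.18 to 0.21 for Ybey). Compared with each other, the 2 h and 4 h treated groups differed for 0 members, as for 0% of all genes, with 2 lower and 0 higher at an unadjusted p under 0.05 and 0 called by DESeq2.

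At 12 h 18 members fell and 2 rose, where 18.3% of all genes fell and 12.3% rose (30.6% in all). With library totals in place of TMM, which moved the median of all genes from 0.04 to 0.18, 15 members fell and 4 rose. The members' median log2 fold change was -0.56, and 12 of the falls exceeded 2-fold. Ngrn measured 137 and 166 CPM with DMSO and 4.81 and 6.24 CPM with dTAG-13 (-4.82 ± 0.27, 28.3-fold, adjusted p = 5.3e-12). Ybey (17.1 and 18.9 CPM, then 3.13 and 0.567 CPM, -2.96 ± 0.53) and Mterf4 (76.7 and 80.3 CPM, then 26.7 and 26.1 CPM, -1.57 ± 0.24) fell with it, so the same 3 of 5 ribosomal RNA genes were lower as in RNA-seq.

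Hars2 fell from 75.3 and 64.1 CPM to 12.8 and 5.67 CPM (-2.78 ± 0.32) and Rars2 from 74.9 and 55.9 CPM to 13.2 and 11.3 CPM (-2.38 ± 0.28). Trmt10c fell from 335 and 327 CPM to 63.5 and 67.5 CPM (-2.34 ± 0.17) and Elac2 from 37.9 and 26.6 CPM to 10.6 and 8.50 CPM (-1.71 ± 0.32). Fastkd5 went from 45.3 and 44.7 CPM to 12.3 and 7.37 CPM (-2.10 ± 0.29), Slirp from 154 and 198 CPM to 62.8 and 78.8 CPM (-1.33 ± 0.17) and Fastkd3 from 239 and 205 CPM to 105 and 96.9 CPM (-1.13 ± 0.16).

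Some members behaved differently in the 2 assays at 12 h. The 13 members that fell in both are 59.1% of the 22 falls in RNA-seq and 72.2% of the 18 in SLAM-seq. This overlap was not counted over all genes. Gfm2 fell in RNA-seq, but in SLAM-seq it measured 51.8 and 48.7 CPM with DMSO and 36.6 and 48.8 CPM with dTAG-13 (-0.26 ± 0.21, adjusted p = 0.36), with overlapping groups, and it passed the test at no earlier time. Tufm measured 28.6 and 40.1 CPM, then 30.1 and 34.0 CPM at 12 h (-0.11 ± 0.25), also overlapping. Of all SLAM-seq reads at 12 h, converted or not, Gfm2 had 1250 and 1082 with DMSO and 1837 and 836 with dTAG-13. Tufm had 713 and 843, then 837 and 398. These libraries held 17.2 and 17.4 M reads with DMSO and 30.7 and 14.7 M with dTAG-13. The assays were normalized separately and the difference between them was not tested. Gfm2 overlaps Nsa2 on the opposite strand, and how the counting treated strands is not stated in the sources used here.

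The reverse was seen for Hsd17b10, which fell in new RNA from 72.1 and 74.4 CPM to 40.2 and 24.4 CPM (-1.13 ± 0.25), and for Pars2 (42.5 and 34.3 CPM, then 22.6 and 10.2 CPM, -1.13 ± 0.31), Mtif3 (-0.83 ± 0.25), Fastkd2 (-0.71 ± 0.19) and Tsfm (-0.57 ± 0.19), none of which passed the test in RNA-seq. Hsd17b10 had the lowest converted share after Lars2 in the 12 h DMSO libraries (5.50%), against a median of 16.8% over the members. Several of the smaller SLAM-seq calls at 12 h did not hold with 1 library left out, which leaves 1 library in its group. Without 1 library, 12 to 16 members were called, the fewest without DMSO replicate 1. Calls on Cars2, Tsfm and Wars2 were lost without any 1 of the 4 (adjusted p = 0.064 to 0.25), those on Pars2 and Mtif3 without DMSO replicate 1 or dTAG-13 replicate 2 (0.11 to 0.42), those on Mars2 and Fastkd2 without DMSO replicate 1 or dTAG-13 replicate 1 (0.050 to 0.14), and that on Gfm1 without either DMSO replicate or dTAG-13 replicate 2 (0.056 to 0.19).

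**Figure D4:**
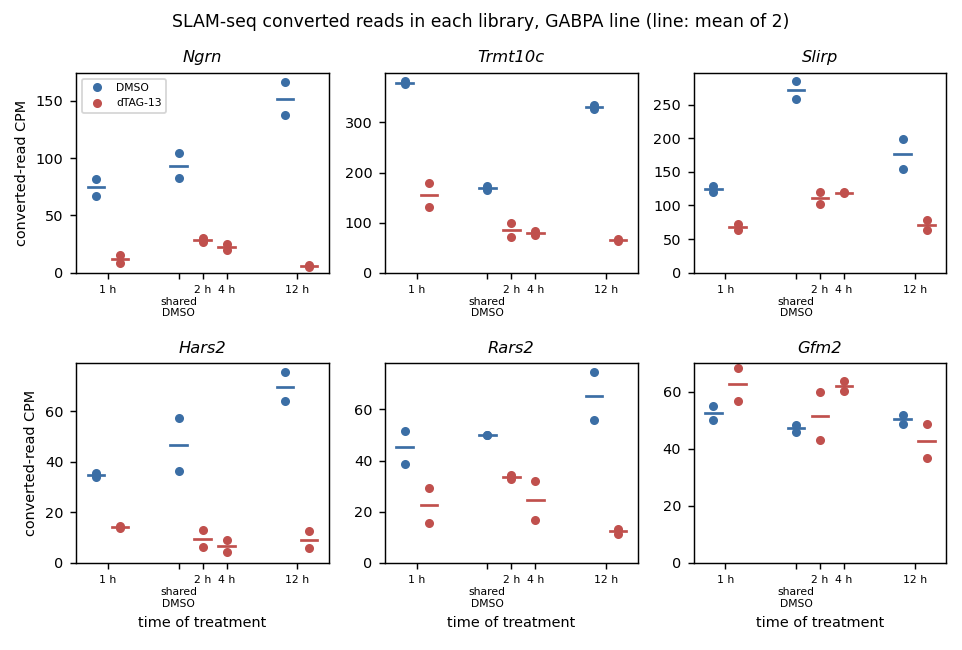
SLAM-seq converted reads (CPM, axes from 0) of 6 members in every library of the GABPA line, by time of treatment, with the DMSO group that 2 h and 4 h share, points for libraries and short lines for the mean of 2. Ngrn, Trmt10c and Slirp lie below their controls from 1 h on, Hars2 and Rars2 lie below theirs too but passed the test only from 2 h on (Hars2) and at 12 h (Rars2), and Gfm2 overlaps its controls at 12 h.

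The 12 h response in SLAM-seq differed from the 1 h response for 5 members, where 4.7% of all genes were lower and 2.14% higher (6.84% in all). Ngrn (-2.17 ± 0.46), Fastkd5 (-1.93 ± 0.45), Elac2 (-1.75 ± 0.51) and Trmt10c (-1.05 ± 0.24) were lower at 12 h, and Lars2 was higher (1.83 ± 0.36). In the DMSO libraries, 5.44% and 6.08% of all reads were converted at 1 h, and 14.1% and 14.0% at 12 h. The length of labelling is not known, and its part in these differences was not tested. Without dTAG-13 replicate 2 of 1 h only 1 of the 5 remained called, and the adjusted p was then 0.15 for Ngrn, 0.12 for Fastkd5 and 0.11 for Trmt10c. Elac2 lost its call without any 1 of 6 of the 8 libraries (0.052 to 0.18), all but DMSO replicate 1 of 1 h and DMSO replicate 2 of 12 h.

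Lars2, the leucine enzyme, stood apart from the other members in its reads. In RNA-seq of the GABPA line it measured 62.9 and 60.6 CPM with DMSO and 100 and 111 CPM with dTAG-13, a rise (0.77 ± 0.26, adjusted p = 0.024), a call lost with DESeq2 (0.078) and without any 1 of the 4 libraries (0.052 to 0.12). In the GABPB1/B2 line it measured 533 and 218 CPM with DMSO and 227 and 198 CPM with dTAG-13, a fall by the test (-0.83 ± 0.24, adjusted p = 0.033) with overlapping groups. DMSO replicate 1 alone set that value: without it the change was -0.03 (adjusted p = 0.89). The call was also lost without dTAG-13 replicate 1 (0.11) or replicate 2 (0.21). Control levels differed between lines as well, with 239 and 203 CPM in the GABPB1 line.

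In SLAM-seq at 12 h, converted reads of Lars2 rose from 187 and 281 CPM to 1150 and 1335 CPM (2.41 ± 0.25, 5.31-fold), while all its reads rose from 1107 and 2015 to 20781 and 25452 RPM (reads scaled to the library total). The converted share of its reads was the lowest of the 48 members in each DMSO group (0.714%, 1.37% and 1.95%), and it was 0.749% and 0.627% in the 12 h dTAG-13 libraries beside 2.13% and 1.77% in their controls. The mitochondrial large ribosomal RNA mt-Rnr2 moved in the same libraries, from 2135 and 1759 to 6287 and 4972 RPM of all SLAM-seq reads. Its converted share was 7.77% and 7.76% with dTAG-13 beside 10.8% and 10.1% in the controls. The small ribosomal RNA mt-Rnr1 moved too, from 354 and 278 to 768 and 867 RPM. In RNA-seq of the GABPA line mt-Rnr2 went from 156 and 163 to 238 and 290 RPM. There mt-Rnr1 measured 69.2 and 63.8 RPM with DMSO and 50.9 and 68.7 RPM with dTAG-13. Of the GABPB1/B2 DMSO libraries of RNA-seq, replicate 1 held more Lars2 than replicate 2 (556 and 225 RPM). That replicate 1 held less mt-Rnr2 (729 and 899 RPM) and less mt-Rnr1 (195 and 233 RPM). The part of either RNA in the Lars2 result was not tested. Wars2, the tryptophan enzyme, was the other member that rose at 12 h (0.85 ± 0.32, adjusted p = 0.043), a call that DESeq2 did not give (0.080).

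**Figure D5:**
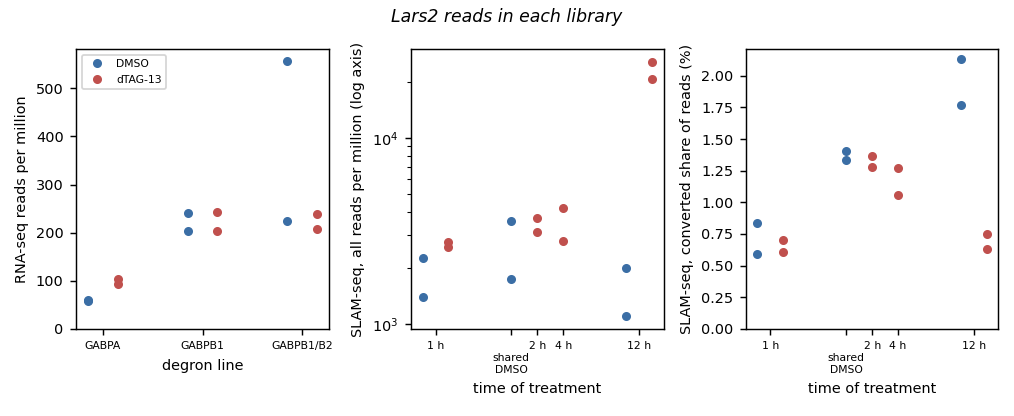
Lars2 reads in each library: RNA-seq RPM by line (left), RPM of all SLAM-seq reads by time (middle, log axis) and the converted share in percent (right), with blue points for DMSO and red points for dTAG-13 libraries. The 12 h dTAG-13 libraries reach 20781 and 25452 RPM with a converted share under 1%, and 1 DMSO library of the GABPB1/B2 line stands above all others in RNA-seq.

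A list of other genes of mitochondrial RNA processing and translation, without ribosomal proteins, had 54 genes found by symbol or synonym. In the GABPA line at 12 h, 23 of the 54 fell and 5 rose in RNA-seq, and 29 fell and 2 rose in SLAM-seq, beside 21.9% and 24.6% of all genes in RNA-seq and 18.3% and 12.3% in SLAM-seq. The median of the list in RNA-seq was -0.15, and that of all genes was 0.06, and 8 of the falls exceeded 2-fold. Hemk1, which methylates release factors (-2.18 ± 0.19), Mettl17, a small-subunit assembly factor (-2.03 ± 0.12), Pdf, the deformylase that acts after MTFMT (-1.99 ± 0.16), and Kars1, whose gene encodes both the cytosolic and the mitochondrial lysine enzyme (-1.55 ± 0.05), fell in RNA-seq. In the GABPB1 line 5 fell and 0 rose (5.46% and 1.28% of all genes), and in the GABPB1/B2 line 7 fell and 0 rose (9.26% and 3.53% of all genes).

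Of 18 synthetases that serve the cytosol, 10 fell and 0 rose in RNA-seq of the GABPA line, 3 fell in the GABPB1 line and 8 in the GABPB1/B2 line, and in SLAM-seq 10 fell at 12 h. The shares of all genes that fell were 21.9%, 5.46%, 9.26% and 18.3% in the same order. Rars1 fell by 2.15 and Hars1 by 1.48 on the log2 scale in RNA-seq, beside Rars2 and Hars2. Wars1 fell by 1.11, where Wars2 did not pass the test (-0.26 ± 0.17), and Iars2 fell where Iars1 did not (-0.02, adjusted p = 0.86).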

How the data were processed

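Of 92 samples in the labels, 26 were analysed here (12 RNA-seq, 14 SLAM-seq) and 66 of other assays were not used here. For RNA-seq the authors deposited RSEM expected counts and TPM per gene. For SLAM-seq the authors deposited, per the file headers, read counts for each gene interval, in total and for T-to-C converted reads alone, from slamdunk 0.4.3 on mm39. STAR 2.7.11a and RSEM 1.3.1 are listed in the submitters' processing notes. How the counting treated strands is not stated in the sources used here.

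Expected counts were rounded. Each assay was fitted once, with a mean per group, in edgeR 4.0.16 (TMM, filterByExpr at a count of 10, total 15) and tested with glmQLFTest, with Benjamini-Hochberg adjustment over all 16396 (RNA-seq) or 15887 (SLAM-seq) genes. Standard errors were computed as the log2 fold change over the square root of F. CPM were computed from the counts and TMM factors. TPM were used only to describe and order levels. Intervals cover counting error only.

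The members and lists were chosen with earlier results of these data known. Members with each library's value are those called with a log2 fold change of at least 1, those called at 2 or more SLAM-seq times, and the highest by TPM in each role. Alternatives were DESeq2 1.42.0, DESeq2 size factors, library totals, other low-count filters, a fit of the compared libraries alone, a replicate block and leaving out each library. Replicates differed by more than counting error (chi-square over its degrees of freedom 1.87 to 14.6).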

Additional observations from a re-analysis of the deposited data

Results flagged for a closer look

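These results stand here because the test of the difference between responses passed (edgeR's quasi-likelihood test, adjusted p under 0.05), and each value is a difference of log2 fold changes. In RNA-seq at 12 h, the response of the GABPA line was lower than that of the GABPB1 line for Ears2 (-0.89), Hars2 (-2.13), Iars2 (-0.86), Rars2 (-2.31), Mtif2 (-0.74), Tufm (-0.78), Gfm1 (-0.76), Gfm2 (-1.67), Elac2 (-0.71), Trmt10c (-1.34), Slirp (-1.28), Fastkd5 (-1.64), Mterf4 (-0.66), Ybey (-1.90) and Ngrn (-3.08). It was higher for Ptcd1 (0.36), a call lost without any 1 of the 8 libraries other than dTAG-13 replicate 2 of the GABPA line (adjusted p = 0.065 to 0.198).

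Against the GABPB1/B2 line, the GABPA response was lower for Ears2 (-0.46), Hars2 (-1.77), Iars2 (-0.78), Rars2 (-1.93), Mtif2 (-0.47), Tufm (-0.59), Gfm1 (-0.64), Gfm2 (-1.24), Elac2 (-0.42), Trmt10c (-1.18), Slirp (-1.07), Fastkd5 (-1.19), Mterf4 (-0.76), Ybey (-1.47) and Ngrn (-1.65). It was higher for Lars2 (1.60) and Ptcd1 (0.35). For Lars2 the difference was 0.76 without DMSO replicate 1 of the GABPB1/B2 line (adjusted p = 0.00058). The call on Ptcd1 was lost without any 1 of 6 libraries, all but dTAG-13 replicate 2 of the GABPA line and DMSO replicate 2 of the GABPB1/B2 line (adjusted p = 0.078 to 0.242). That on Ears2 was lost without either DMSO replicate or dTAG-13 replicate 1 of the GABPA line, or dTAG-13 replicate 1 of the GABPB1/B2 line (0.053 to 0.088), and that on Mtif2 without DMSO replicate 1 or dTAG-13 replicate 1 of the GABPA line, or dTAG-13 replicate 2 of the GABPB1/B2 line (0.054 to 0.107). The response of the GABPB1/B2 line was lower than that of the GABPB1 line for Ngrn (-1.43).

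In SLAM-seq of the GABPA line, the 12 h response was lower than the 1 h response for Ngrn (-2.17), Fastkd5 (-1.93), Elac2 (-1.75) and Trmt10c (-1.05), and higher for Lars2 (1.83).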

How the results depend on the processing

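In RNA-seq of the GABPA line, 20 of the 26 calls held under every alternative and without any 1 library, as did 8 of 17 in the GABPB1/B2 line, 1 of 7 in the GABPB1 line, and 2 of 3, 3 of 5, 4 of 7 and 12 of 20 in SLAM-seq at 1, 2, 4 and 12 h. No call on a member reversed its direction under any alternative run. Counts of members moved as follows, and the cause was not tested. The 1 rise of the GABPB1 line became 2 with library totals, 2 under the stricter filter (mean log2 CPM from 3 up), 6 in a fit of its libraries alone, and 0 without a low-count filter, with DESeq2 and with the replicate block. The 3 rises of the GABPB1/B2 line became 1 without a filter and 0 in a fit of its libraries alone. The 1 member that differed between the GABPB1/B2 and GABPB1 lines became 3 without a filter and 2 with the stricter filter or DESeq2. The 5 members that differed between 12 h and 1 h became 8 in a fit of those libraries alone.

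With a library left out, newly called members included, 18 to 22 members were called as falls and 2 to 4 as rises in the GABPA line (2 without dTAG-13 replicate 2), 1 to 3 and 0 in the GABPB1 line, and 8 to 13 and 0 to 3 in the GABPB1/B2 line. The differences from the GABPB1 and GABPB1/B2 lines held 15 to 16 and 14 to 20 members, and that between the GABPB lines 1 to 2. In SLAM-seq 2 members were called at 1 h, 3 to 6 at 2 h (3 without dTAG-13 replicate 1), 5 to 7 at 4 h, 12 to 16 at 12 h, and 1 to 6 for 12 h against 1 h.

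Replicate numbers share no stated origin. Deviations of same-numbered libraries correlated at -0.0036, -0.041 and 0.034 in RNA-seq and at -0.0033, 0.29, 0.13 and 0.096 in SLAM-seq at 1, 2, 4 and 12 h. With the replicate block, 8 in place of 5 members were called at 2 h (6 falls and 2 rises) and 11 in place of 5 for 12 h against 1 h.

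Depth limits SLAM-seq, with a median of 24 to 125.5 converted reads per member and library.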

Other observations

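Start sites of other genes on the opposite strand lay within 1000 bases of the start of 24 members, and for 14 of them the nearest tested gene could be compared in RNA-seq of the GABPA line. In 5 pairs both genes fell. Such pairs were not counted over all genes, of which 21.9% fell and 24.6% rose in this comparison. The counts of pairs, here and below, are therefore not read as particular to the members. Rars2 starts 13 bases from Orc3, a subunit of the origin recognition complex, which fell by 1.88 on the log2 scale, and Hars2 starts 197 bases from Hars, the cytosolic histidine enzyme, which fell by 1.48. The other pairs of falls were Gfm2 with Nsa2 (-0.54), Ears2 with Ubfd1 (-0.22) and Sars2 with Mrps12 (-0.73), a ribosomal protein of the small mitochondrial subunit.

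In 2 pairs the member fell and its neighbour rose. Mcm3ap, which starts 187 bases from Ybey and overlaps it, rose by 1.21 ± 0.06 where Ybey fell by 2.12 ± 0.16, and in SLAM-seq at 12 h Mcm3ap rose by 1.03 and Ybey fell by 2.96. Mtrr, a reductase of methionine synthase that starts 85 bases from Fastkd3, rose by 0.28 in RNA-seq and by 0.52 in SLAM-seq, where Fastkd3 fell (-0.37 and -1.13). Slirp fell where its neighbour Alkbh1, which starts 121 bases away, did not pass the test in RNA-seq (-0.08 ± 0.08), and in SLAM-seq at 12 h Alkbh1 fell too (-0.50 ± 0.16). In 4 pairs the member did not pass the test in RNA-seq while the neighbour rose: Triap1 beside Gatc (0.30), Rbm18 beside Mrrf (0.61), Polr1a beside Ptcd3 (0.34) and Rtn4ip1 beside Qrsl1 (0.59). In SLAM-seq at 12 h none of these 4 neighbours passed the test (-0.40 to 0.42). Of the 48 members 24 overlap a gene on the opposite strand, and without strand information the reads of such pairs cannot be told apart. A gene on the same strand overlaps 6 members, Fastkd5 (Ubox5) and Trmt10c (Gm22422) among them, and strand information would not separate those reads.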
